A study of Mus musculus with 15 samples.

Results

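Messenger RNA of 10 genes that mark the primitive streak or answer canonical Wnt signalling, namely T (Brachyury), Mixl1, Eomes, Evx1, Wnt3, Fgf8, Sp5, Axin2, Lef1 and Cdx1, was followed across mouse pluripotent stem cell lines and fibroblasts measured on Affymetrix arrays. The genes were chosen by name, with every probe set annotated to each of them alone. T was not analysed here, because no probe set carried its name in the annotation used, and the other 9 genes were read by 12 probe sets out of 18193 genes on the array. Eomes, Axin2 and Lef1 had 2 probe sets each, and the probe set with the highest mean over all arrays stands for a gene below unless another is named.

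The 15 arrays fall into 5 groups of 3. IP20D-3, IP14D-101 and IP14D-1 are induced pluripotent stem (iPS) lines, each 1 line, CL11 is an embryonic stem (ES) line, and MEF are embryonic fibroblasts, which the design text gives as the source of the iPS lines. IP14D-101 has the C57x129S2 background, and IP20D-3, IP14D-1, CL11 and MEF have B6D2F1, so line and background cannot be told apart for IP14D-101, and these MEF do not share the background of that line. The stem cell lines were kept with leukaemia inhibitory factor (LIF) on mitomycin C-treated fibroblasts, in medium with either bovine serum or a serum replacement. Which line had which medium, how the iPS lines were reprogrammed and the sex of the lines are not given in the sources used here. The design text describes the 3 samples of a group as biological replicates, without naming separate cultures, so p-values measure the spread between these samples.

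The primitive streak is the site in the mouse embryo where epiblast cells leave the epithelium to form mesoderm and definitive endoderm. Wnt3 is the ligand that starts it, and the transcription factors T, Eomes, Mixl1 and Evx1 and the growth factor Fgf8 are switched on there. Canonical Wnt signalling keeps beta-catenin from being degraded, which lets it bind TCF and LEF proteins on DNA. Axin2, Sp5, Lef1 and Cdx1 are among the genes this complex turns on, and Axin2 and Sp5 both feed back on the pathway. In mouse ES cells the same pathway helps to maintain self-renewal, chiefly by relieving repression by Tcf7l1.

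Sp5 gave the widest difference between lines and Eomes marks the streak, so the 250 bases before the start of each are shown, from RefSeq, build GRCm38.p6. Capitals mark matches to a TCF/LEF motif, searched on both strands as ATCAAAG, or the same letters with AA, TA or TT in place of the first pair. Sp5 lies on the plus strand with its window at chr2:70474673-70474922, and Eomes on the plus strand with its window at chr9:118477939-118478188.
Sp5: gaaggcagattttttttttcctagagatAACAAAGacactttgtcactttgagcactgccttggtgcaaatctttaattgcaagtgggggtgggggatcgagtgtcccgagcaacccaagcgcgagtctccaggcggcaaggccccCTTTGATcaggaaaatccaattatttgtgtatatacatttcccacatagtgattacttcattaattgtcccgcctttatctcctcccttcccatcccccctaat
Eomes: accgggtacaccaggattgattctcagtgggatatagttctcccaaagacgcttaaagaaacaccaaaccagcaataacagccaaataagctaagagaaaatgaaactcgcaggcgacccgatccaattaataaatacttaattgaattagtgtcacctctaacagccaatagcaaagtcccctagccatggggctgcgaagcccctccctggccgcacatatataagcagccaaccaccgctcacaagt
The Sp5 window held 2 matches, beginning 222 and 104 bases before the start, the second of them read on the opposite strand. Of 32851 RefSeq promoter windows of this length, 14.8% held at least 1 match and 1.43% held 2 or more. Windows were available for 6 of the 9 measured genes, and Lef1 was the other gene with a match, in 1 of its 4 windows. No match lay in the windows of Eomes, Evx1, Wnt3 or Axin2, which says only that these letters are missing there. The Axin2 window and the Lef1 window with the match precede starts inside the outer bounds that RefSeq gives these genes. That Lef1 window is at chr3:131156044-131156293, and the outer start of the gene is at 131110297. The Eomes window runs a few bases past the outer start of its gene, at 118478186.

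Values below are the deposited MAS5 signals, scaled so that all arrays have the same 2% trimmed mean. A signal of 2087, the 95th percentile of 39 olfactory receptor genes, was taken as background. Trimmed means ran from 11198 to 20466 before scaling, and each array correlated with its own group at a mean r of 0.944 to 0.953. Differences were tested with limma on log2(signal + 16), with Benjamini-Hochberg adjustment over all 45037 probe sets that are not array controls. A gene was called higher or lower where the adjusted p was under 0.05 and the brighter of the 2 group means lay above background. Fold changes against a group with its mean below background are lower bounds (at least so many fold), computed with its dim arrays raised to background. Log2 changes against such a group are fitted values that rest on signals below background. In bulk RNA fewer cells of a type and less RNA per cell cannot be told apart.

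The labelled cell types matched their defining markers. All 11 pluripotency markers were above background in IP20D-3, IP14D-101, IP14D-1 and CL11, and 1 of them, Utf1, in MEF. Of 11 fibroblast markers, 3 were above background in IP20D-3, 3 in IP14D-101, 6 in IP14D-1, 2 in CL11 and 11 in MEF. Their summed signal was 13344 to 18072 in IP20D-3, 12657 to 15511 in IP14D-101, 33504 to 34798 in IP14D-1, 11366 to 14659 in CL11 and 4406786 to 4824870 in MEF. Endoderm markers separated the lines another way, since 4 of 12 were above background in IP20D-3, 9 in IP14D-101, 6 in IP14D-1, 9 in CL11 and 4 in MEF. Their summed signal was 38539 to 41870 in IP20D-3, 205614 to 226423 in IP14D-101, 36595 to 38064 in IP14D-1, 280819 to 299576 in CL11 and 98132 to 101215 in MEF.

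**Figure D1:**
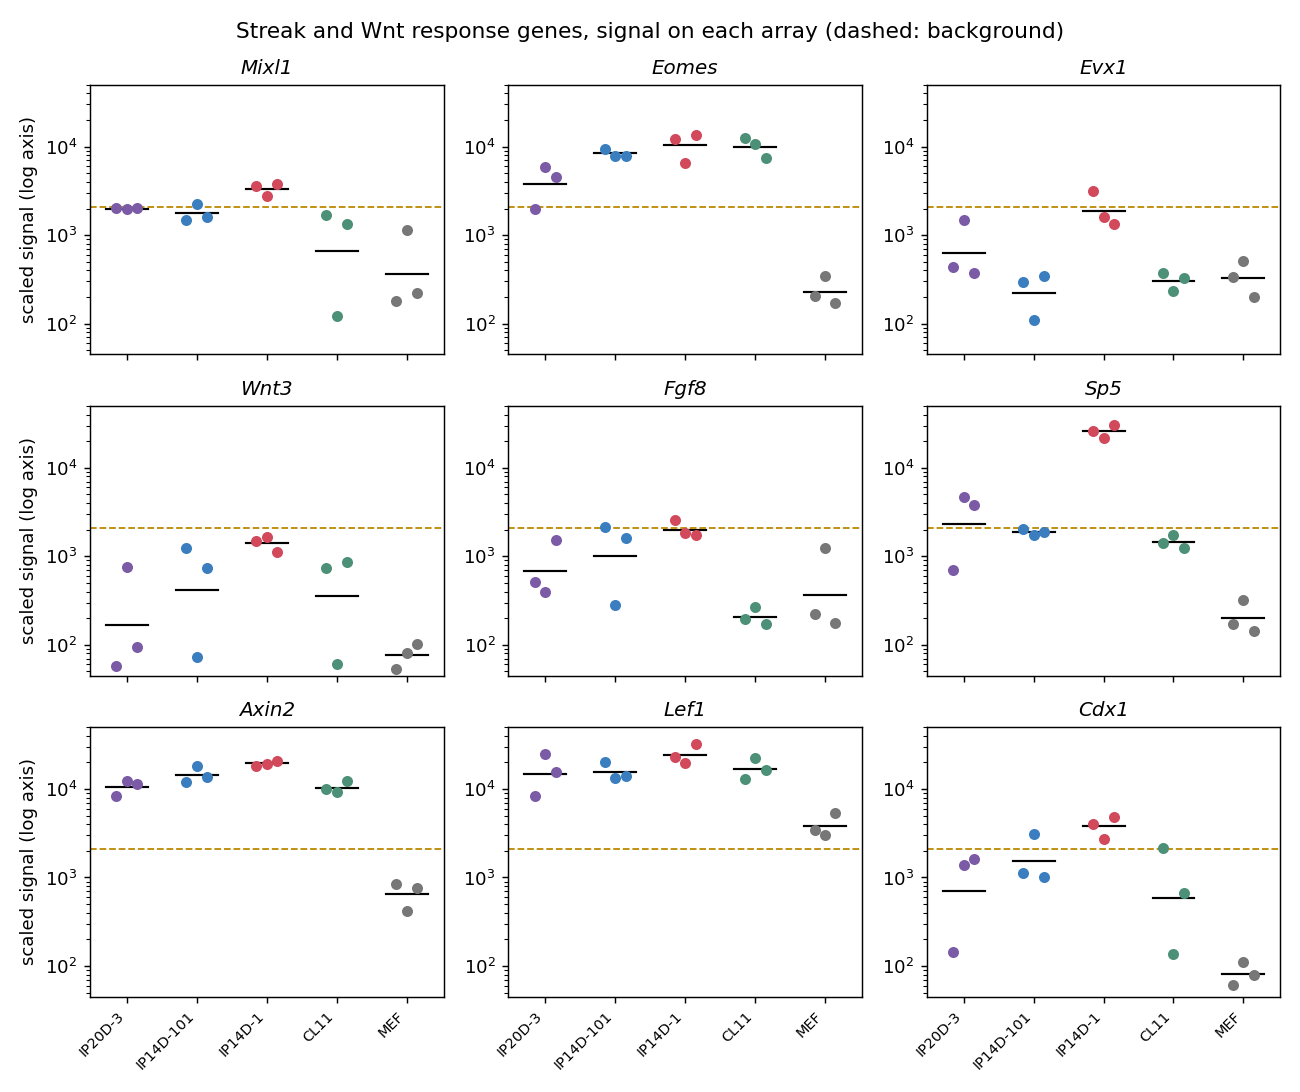
Scaled signal (log axis) of the 9 measured genes on each of 15 arrays, by group. Points are single arrays, black bars are the group means on the log scale, and the dashed line is background at 2087. The 3 IP14D-1 arrays for Sp5 lie between 21793 and 30369, above every other array.

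The stem cell lines were first set against MEF, which differ from IP14D-101 in genetic background too. No measured gene was called lower in any line. A lower call needs a MEF mean above background, which only Lef1 had, so the other genes could not be called lower. Of all genes, 22.5% were called lower in IP20D-3, 23% in IP14D-101, 21.8% in IP14D-1 and 22.5% in CL11. Eomes, Axin2 and Lef1 were called higher in all 4 lines, Sp5 was also called higher in IP20D-3, and Mixl1, Sp5 and Cdx1 were also called higher in IP14D-1. The counts were 4 of 9 genes for IP20D-3, where 28.3% of all genes were called higher, and 3 of 9 for IP14D-101, against 28.6% of all genes. They were 6 of 9 for IP14D-1, against 27.7% of all genes, and 3 of 9 for CL11, against 28.4%. The genes not called higher, 5, 6, 3 and 6 in these lines, all had both means below background. The 4 comparisons share the MEF arrays.

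Between lines, 0 to 3 of the 9 genes were called in a comparison. IP14D-1 was higher than CL11 for 2 of 9 genes, Sp5 and Axin2, and lower for 0, where 10.1% of all genes were called higher and 11.4% lower. IP14D-101 differed from CL11 for 0 of 9, where 4.99% of all genes were called higher and 4.36% lower. IP20D-3 was lower than CL11 for 1 of 9, Eomes, and higher for 0, where 9.77% of all genes were called lower and 9.1% higher. Among the iPS lines, IP14D-101 was lower than IP14D-1 for 1 of 9 genes, Sp5, and higher for 0, where 11.8% of all genes were called lower and 14.2% higher. IP20D-3 was lower than IP14D-1 for 3 of 9, Eomes, Sp5 and Axin2, and higher for 0, where 3.4% of all genes were called lower and 3.81% higher. IP20D-3 was lower than IP14D-101 for 1 of 9, Eomes, and higher for 0, where 11.4% of all genes were called lower and 9.77% higher. Counts of 0 or 1 of 9 genes are near these shares. The comparisons share arrays, since each line enters 3 of them.

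Sp5 encodes a zinc finger transcription factor of the Sp family that is induced directly by beta-catenin (probe set 1422914_at). Its signal was 693, 4725 and 3850 in IP20D-3, 2056, 1739 and 1906 in IP14D-101, 26291, 21793 and 30369 in IP14D-1, 1417, 1725 and 1237 in CL11 and 172, 320 and 144 in MEF. The 3 IP14D-1 arrays stood above the other 12, all IP14D-101, CL11 and MEF arrays lay below background, and IP20D-3 had 2 arrays above it and 1 far below. IP14D-1 was at least 12.3-fold higher than CL11 (adjusted p = 4.01e-05) and at least 12.3-fold higher than MEF (adjusted p = 4.02e-09). IP14D-101 was at least 12.3-fold lower than IP14D-1 (adjusted p = 7.7e-05). IP20D-3 fell by 3.46 ± 0.56 on the log2 scale relative to IP14D-1 (SE, adjusted p = 0.000799), and by 2.60 without IP20D-3 replicate 1. These Sp5 calls held under all 18 alternatives run for each comparison.

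In the order of Sp5 levels IP14D-1 came first and IP20D-3 second, and IP14D-101, CL11 and MEF, with means below background, have no order. With quantile or median scaling, however, Sp5 was called higher in IP14D-101 than in MEF. IP20D-3 did not pass the threshold against IP14D-101 (adjusted p = 0.79) or CL11 (adjusted p = 0.504). Without IP20D-3 replicate 1, the array at 693, the fitted log2 difference from CL11 was 1.55 (adjusted p = 0.0217). IP20D-3 was at least 1.12-fold higher than MEF (adjusted p = 3.54e-05), with a mean that near to background. That call was lost with no scaling, with background at the 99th percentile, and without IP20D-3 replicate 2 or 3.

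Axin2 encodes a scaffold of the complex that degrades beta-catenin and is the most widely used readout of canonical Wnt activity. Its representative probe set, 1436845_at, gave 8341, 12470 and 11296 in IP20D-3, 11999, 18262 and 13737 in IP14D-101, 18388, 19249 and 20949 in IP14D-1, 10001, 9191 and 12197 in CL11 and 840, 420 and 755 in MEF. Every line array was above background and every MEF array below it, and the IP14D-1 arrays were above all IP20D-3, IP14D-101 and CL11 arrays. Relative to MEF, Axin2 was at least 5.03-fold higher in IP20D-3, 6.88-fold in IP14D-101, 9.28-fold in IP14D-1 and 4.95-fold in CL11 (adjusted p = 5.76e-11, 1.21e-11, 3.78e-12 and 6.48e-11).

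IP14D-1 exceeded CL11 in Axin2 by 0.91 ± 0.24 on the log2 scale, a 1.88-fold difference (SE, adjusted p = 0.0131). The call was lost without CL11 replicate 2 (adjusted p = 0.0604) or without IP14D-1 replicate 3 (adjusted p = 0.0518), and with arrays scaled to a common median (0.66, adjusted p = 0.0741). IP20D-3 over IP14D-1 was -0.88 ± 0.24 (adjusted p = 0.0387), a call lost under 8 of 18 alternatives, among them the replicate block (adjusted p = 0.0505) and leaving out any array of the 2 lines except IP20D-3 replicate 2 (adjusted p up to 0.177). IP14D-101 over CL11 was 0.47 ± 0.24 (adjusted p = 0.289) and IP20D-3 over CL11 was 0.02 ± 0.24 (adjusted p = 0.973), and neither was called. The second Axin2 probe set, 1421341_at, gave 646, 438 and 975 in IP20D-3, 2730, 2951 and 660 in IP14D-101, 3716, 3356 and 4449 in IP14D-1, 824, 1254 and 1596 in CL11 and 198, 303 and 266 in MEF. On it the 3 IP14D-1 arrays again lay above all others. Against MEF only IP14D-1 was called higher on this probe set (at least 1.82-fold, adjusted p = 3.36e-05). The means of IP20D-3, IP14D-101 and CL11 on it were below background. IP20D-3 was at least 1.82-fold lower than IP14D-1 there (adjusted p = 0.0199), while IP14D-1 over CL11 missed the threshold (adjusted p = 0.0700).

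Lef1 encodes a DNA-binding partner of beta-catenin that is itself a Wnt target (1454734_at). Its signal was 8431, 24992 and 15519 in IP20D-3, 20224, 13279 and 14154 in IP14D-101, 23202, 19727 and 32045 in IP14D-1, 12856, 22303 and 16574 in CL11 and 3402, 3035 and 5391 in MEF. On this probe set Lef1 was the one measured gene above background in MEF, and no line array overlapped the MEF arrays. The log2 change over MEF was 1.95 in IP20D-3, 2.03 in IP14D-101, 2.68 in IP14D-1 and 2.13 in CL11, each ± 0.32 (SE, adjusted p = 3.79e-05, 2.48e-05, 8.5e-07 and 1.39e-05). Between lines the largest gap was IP20D-3 over IP14D-1, at -0.72 ± 0.32 (adjusted p = 0.238). The second probe set, 1421299_a_at, was also called higher than MEF in all 4 lines. There the MEF arrays were at 52.5, 872 and 1734, all below background, so the probe sets differ on Lef1 in MEF. Its mean log2 signal was 12.30 in IP20D-3, 12.52 in IP14D-101, 12.39 in IP14D-1 and 12.65 in CL11, so IP14D-1 was not the highest line on it.

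Cdx1 encodes a caudal homeobox factor that Wnt signals induce in the streak and the posterior embryo (1449582_at). Its signal was 143, 1383 and 1611 in IP20D-3, 1122, 3100 and 1008 in IP14D-101, 4067, 2750 and 4858 in IP14D-1, 2176, 135 and 669 in CL11 and 61.0, 110 and 79.8 in MEF. All IP14D-1 arrays were above background, against 1 array each of IP14D-101 and CL11. IP14D-1 was at least 1.81-fold higher than MEF (adjusted p = 0.00013). IP14D-1 over CL11 was 2.64 ± 0.95 on the fitted log2 scale (adjusted p = 0.0665), with a lower bound of only 1.78-fold, and was not called. Its adjusted p ran from 0.0134 to 0.301 over the 18 alternatives, 5 of which passed the threshold.

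Among the streak transcription factors, Eomes, a T-box protein needed for mesoderm and endoderm to form, was the one with its mean above background in all 4 stem cell lines (1426001_at). Its signal was 1995, 5946 and 4578 in IP20D-3, 9364, 7944 and 7901 in IP14D-101, 12151, 6623 and 13701 in IP14D-1, 12478, 10586 and 7518 in CL11 and 206, 347 and 171 in MEF. The IP20D-3 arrays lay below all other line arrays, and MEF was far below background. Eomes was at least 1.81-fold higher than MEF in IP20D-3, 3.99-fold in IP14D-101, 4.92-fold in IP14D-1 and 4.75-fold in CL11 (adjusted p = 6.18e-08, 1.66e-09, 8.13e-10 and 8.46e-10).

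The Eomes difference of IP20D-3 from CL11 was -1.39 ± 0.39 on the log2 scale (SE, adjusted p = 0.0196). It was -1.44 ± 0.39 from IP14D-1 (adjusted p = 0.0353) and -1.14 ± 0.39 from IP14D-101 (adjusted p = 0.0484). All 3 calls were lost without IP20D-3 replicate 1, the array at 1995, when the differences were -0.93, -0.98 and -0.68 (adjusted p = 0.126, 0.18 and 0.261). The call against CL11 was also lost without CL11 replicate 1 or 2 (adjusted p = 0.0874 and 0.0677), and that against IP14D-1 without IP20D-3 replicate 3 or IP14D-1 replicate 1 or 3 (adjusted p = 0.0593, 0.139 and 0.154). The call against IP14D-101 was kept only without IP20D-3 replicate 2 among the 6 arrays left out in turn. With the replicate block the adjusted p was 0.0515 against IP14D-1 and 0.0643 against IP14D-101. On the second Eomes probe set, 1435172_at, the signal was 2108, 4876 and 4388 in IP20D-3, 9705, 5303 and 6734 in IP14D-101, 8319, 8590 and 7426 in IP14D-1, 7474, 6410 and 7806 in CL11 and 388, 235 and 1081 in MEF. IP20D-3 was again the lowest line, but none of the 3 differences was called (adjusted p = 0.138, 0.134 and 0.136). IP14D-1, CL11 and IP14D-101 followed each other in the order of Eomes levels with gaps of 0.05 and 0.25 ± 0.39 on the log2 scale (adjusted p = 0.959 and 0.795).

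Mixl1 encodes a paired-type homeobox factor of the streak (1421505_at). Its signal was 2003, 1962 and 2015 in IP20D-3, 1484, 2257 and 1622 in IP14D-101, 3626, 2780 and 3741 in IP14D-1, 1683, 122 and 1342 in CL11 and 181, 1138 and 222 in MEF. IP14D-1 was the one group with its mean above background and all of its arrays lay above every other array. It was at least 1.60-fold higher than MEF (adjusted p = 0.00323), a call lost with background at the 99th percentile. The difference from CL11 was not called (adjusted p = 0.0573). It was 2.30 ± 0.80 on the fitted log2 scale, with a lower bound of only 1.60-fold, since CL11 lay below background. The Mixl1 difference from CL11 passed the threshold under 7 of 18 alternatives.

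Evx1, a homeobox gene of the posterior streak, Wnt3, the ligand, and Fgf8, a growth factor needed for cells to leave the streak, had every group mean below background. Evx1 (1421627_at) gave 437, 1486 and 375 in IP20D-3, 294, 109 and 343 in IP14D-101, 3142, 1601 and 1351 in IP14D-1, 371, 234 and 326 in CL11 and 335, 508 and 199 in MEF, so 1 IP14D-1 array passed background. Fgf8 (1451882_a_at) gave 515, 400 and 1528 in IP20D-3, 2147, 283 and 1623 in IP14D-101, 2549, 1821 and 1730 in IP14D-1, 194, 268 and 173 in CL11 and 222, 1238 and 174 in MEF. For Fgf8, 1 IP14D-101 array and 1 IP14D-1 array passed background. Wnt3 (1450763_x_at) ran from 52.7 to 1635 and was below background on all 15 arrays. The highest mean of each of these 3 genes was in IP14D-1, but levels below background give no fold.

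**Figure D2:**
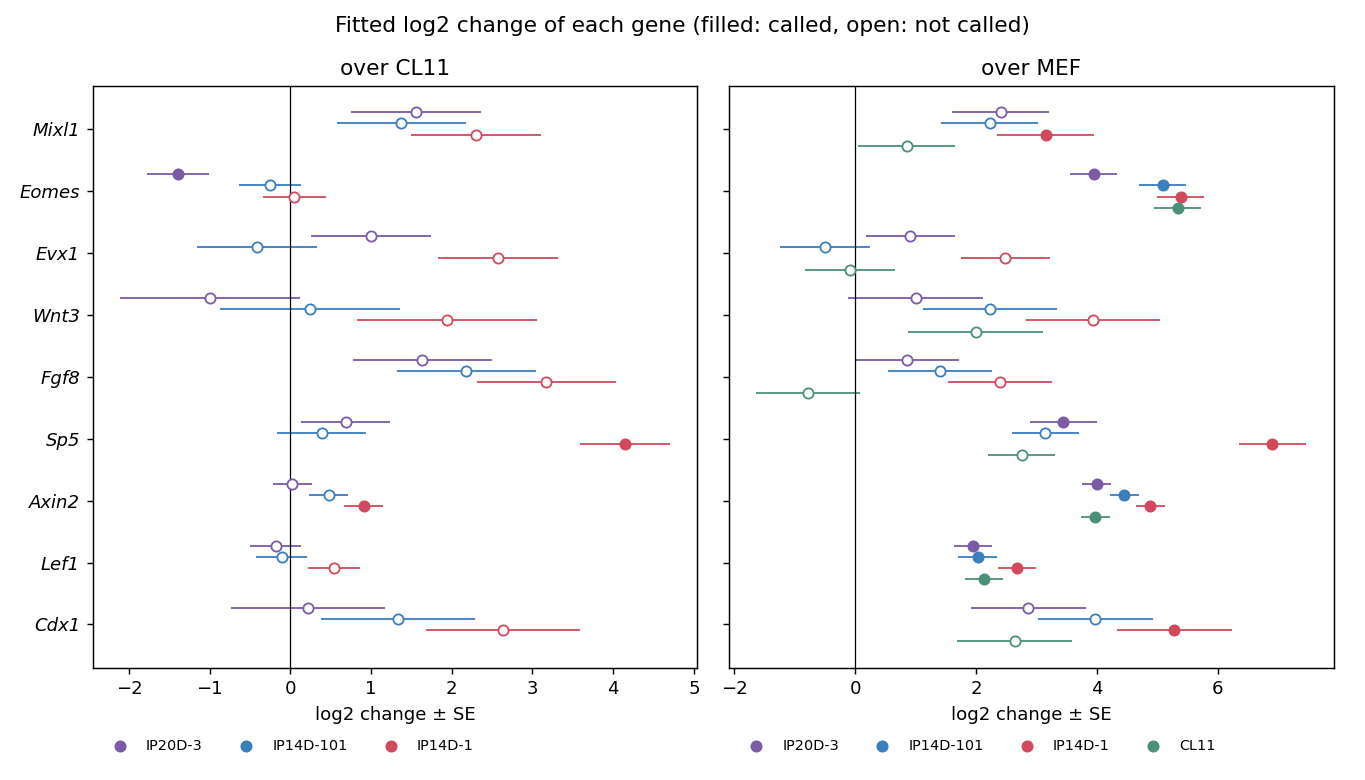
Fitted log2 change ± SE of the 9 genes in each line over CL11 (left) and over MEF (right), from 3 arrays a group. Filled points were called and open points were not; changes of genes below background are fitted values only. Sp5 in IP14D-1, at 4.15 over CL11 and 6.91 over MEF, lies farthest right.

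Marker lists were read beside these differences. IP14D-1, where Sp5 and Axin2 were highest, also had the highest fibroblast marker sum of the lines. There 5 of 11 fibroblast markers, Col1a1, Col1a2, Col3a1, Postn and Twist1, were called higher than in CL11, beside 10.1% of all genes. In the MEF arrays Sp5 was 144 to 320 and Axin2 420 to 840, below background. Endoderm markers were called lower than in CL11 for 9 of 12 genes in IP20D-3, 0 of 12 in IP14D-101 and 9 of 12 in IP14D-1, where 9.77%, 4.36% and 11.4% of all genes were called lower. Of 11 pluripotency markers, 4 were called lower and 0 higher than CL11 in IP14D-1, namely Tfcp2l1 at -1.03 ± 0.17 on the log2 scale, Fgf4 at -0.95 ± 0.09, Utf1 at -0.83 ± 0.16 and Nanog at -0.47 ± 0.13 (SE). Over CL11, 0 of the 11 were called higher and 1 lower in IP20D-3, and 1 and 0 in IP14D-101. Of all genes, 11.4% were called lower in IP14D-1, 9.77% in IP20D-3 and 4.36% in IP14D-101. The summed signal of the 11 markers was 3564478 to 3931869 in IP20D-3, 4044265 to 4387398 in IP14D-101, 3240191 to 3411123 in IP14D-1 and 3794581 to 4016284 in CL11. Of 6 primed epiblast markers, the same 4 were called higher than in CL11 in IP14D-1 and IP20D-3, namely Fgf5, Otx2, Pou3f1 and Dnmt3b. In IP14D-101 0 of them were called higher. The shares of all genes called higher were 10.1% in IP14D-1, 9.1% in IP20D-3 and 4.99% in IP14D-101. In IP20D-3 over IP14D-1, 0 of 11 fibroblast markers were called higher and 4 lower. Pluripotency markers there had 3 of 11 called higher and 0 lower. Endoderm markers had 1 of 12 called higher and 1 lower, and primed epiblast markers 0 of 6 either way. Of all genes, 3.81% were called higher and 3.4% lower in that comparison. The 3' to 5' ratio of actin probe sets, a sign of RNA or labelling quality, was 1.28 ± 0.0263 in IP20D-3, 1.22 ± 0.0636 in IP14D-101, 1.37 ± 0.0365 in IP14D-1, 1.21 ± 0.0184 in CL11 and 1.16 ± 0.0185 in MEF (SD, n = 3 each). Of 7 trophoblast and 8 later mesoderm, endothelial and blood markers none was called in any iPS line over CL11. Of 5 neural markers 1 was called higher in each, with 1 lower in IP20D-3. Of all genes, 18.9% were called in either direction in IP20D-3, 9.35% in IP14D-101 and 21.5% in IP14D-1. The part of fibroblast and endoderm content, pluripotency and epiblast state and RNA quality in the Sp5, Axin2 and Eomes differences was not tested.

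Other genes of the streak were called at about the share of all genes or below it. Of 19 further streak and early mesoderm genes, 0 were called higher and 2 lower than CL11 in IP20D-3, 0 and 0 in IP14D-101, and 2 and 1 in IP14D-1, where 18.9%, 9.35% and 21.5% of all genes were called in either direction. The median fitted log2 changes, dim genes included, were -0.14, -0.08 and 0.19, beside 0.01, 0.00 and 0.03 for all genes. Foxa2, a factor of the anterior streak and of endoderm, fell at least 1.78-fold in both IP20D-3 and IP14D-1 (adjusted p = 0.0109 and 0.0141). It is counted above among the endoderm markers too. Nodal, the TGF-beta family ligand that patterns the streak, differed by -0.42 ± 0.13 on the log2 scale in IP20D-3 (adjusted p = 0.0304). The rises in IP14D-1 were Wnt8a, at least 2.23-fold (adjusted p = 0.0402), and Snai1, 0.78 ± 0.26 (adjusted p = 0.0477), and both calls were lost with quantile or median scaling. Against MEF, where all 4 lines have far more Nodal (at least 29.9-fold in IP20D-3, 37.9-fold in IP14D-101, 41.6-fold in IP14D-1 and 40.0-fold in CL11), 4, 5, 6 and 7 of the 19 were called higher and 1, 2, 1 and 1 lower, in a background of 28.3%, 28.6%, 27.7% and 28.4% of all genes called higher.

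Among 13 other canonical Wnt targets, IP14D-1 had 2 genes called higher and 1 lower than CL11, near the 10.1% and 11.4% of all genes. Tnfrsf19, a TNF receptor family member, rose by 1.74 ± 0.40 on the log2 scale (adjusted p = 0.00507) and Znrf3, a ubiquitin ligase that removes Wnt receptors from the membrane, by 0.95 ± 0.15 (adjusted p = 0.000228). Apcdd1, a membrane inhibitor of the pathway, differed by -0.81 ± 0.25 (adjusted p = 0.0297). IP14D-101 had 0 called. IP20D-3 had 0 higher and 4 lower, beside 9.1% and 9.77% of all genes, namely Dkk1 (at least 2.89-fold, adjusted p = 0.00572), Myc at -0.98 ± 0.18, Apcdd1 at -0.83 ± 0.25 and Ccnd1 at -0.34 ± 0.09. Median log2 changes over these targets were -0.14 in IP20D-3, 0.00 in IP14D-101 and 0.16 in IP14D-1. Znrf3 also differed from IP14D-1 by -0.66 ± 0.15 in IP20D-3 (adjusted p = 0.015) and by -0.95 ± 0.15 in IP14D-101 (adjusted p = 0.000165). Against MEF, 3 targets were called higher and 1 lower in IP20D-3, 5 and 0 in IP14D-101, 6 and 0 in IP14D-1 and 6 and 0 in CL11, where 28.3%, 28.6%, 27.7% and 28.4% of all genes were called higher. Notum, a secreted enzyme that inactivates Wnt proteins, was at least 4.51-fold higher in IP20D-3, 5.96-fold in IP14D-101, 5.56-fold in IP14D-1 and 4.99-fold in CL11 (adjusted p = 7.13e-06, 1.55e-06, 2.44e-06 and 4.16e-06).

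The ligands were mostly dim, with 6 of 18 above background in IP20D-3, 8 in IP14D-101, 9 in IP14D-1, 8 in CL11 and 7 in MEF. In IP14D-1, 3 were called higher than CL11 and none lower, beside 10.1% and 11.4% of all genes. Wnt4 was higher by 1.81 ± 0.40 (adjusted p = 0.00376) and kept its call under each scaling, while Wnt8a, counted above among the streak genes too, and Wnt9a, 0.92 ± 0.28, lost theirs under quantile and median scaling. Wnt4 arrays ran from 6958 to 8269 in IP14D-1, against 1274 to 4081 in CL11 and 2367 to 3326 in MEF. IP14D-101 had 0 ligands called, and IP20D-3 had Wnt7b, 0.55 ± 0.18 (adjusted p = 0.046), lost under each other scaling.

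Receptors were called in both directions. Of 20 receptors, co-receptors and R-spondins, 4 were called higher and 2 lower than CL11 in IP20D-3, 4 and 0 in IP14D-101, and 4 and 3 in IP14D-1. The shares of all genes called higher and lower were 9.1% and 9.77% in IP20D-3, 4.99% and 4.36% in IP14D-101, and 10.1% and 11.4% in IP14D-1. Fzd2 was higher by 1.16 ± 0.17 in IP20D-3, 1.49 ± 0.17 in IP14D-101 and 1.51 ± 0.17 in IP14D-1, and Fzd7 by 1.31, 0.72 and 0.98, each ± 0.09. Fzd5 differed by -1.04 ± 0.12 in IP20D-3 and -1.21 ± 0.12 in IP14D-1. Rspo2, a secreted ligand that strengthens Wnt signals, fell at least 1.59-fold in IP14D-1 (adjusted p = 0.00195). Fzd2 was 5696 to 9628 in CL11 and 116108 to 135722 in MEF, and the part of fibroblast RNA in its rise was not tested. These frizzled calls held under quantile, median and no scaling.

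The remaining steps of the pathway are read against 18.9% of all genes called in either direction in IP20D-3, 9.35% in IP14D-101 and 21.5% in IP14D-1. Of 13 secreted inhibitors, 1 was called higher and 2 lower than CL11 in IP20D-3, 1 and 0 in IP14D-101, and 1 and 1 in IP14D-1. Sfrp2, a soluble binder of Wnt proteins, was higher by 2.01 ± 0.31 in IP14D-101 (adjusted p = 0.000426) and 1.01 ± 0.31 in IP14D-1. It was below background in MEF, and the part of fibroblast RNA in its rises was not tested. Sfrp1 differed by -0.62 ± 0.11 in IP20D-3 and -0.88 ± 0.11 in IP14D-1. Among 10 nuclear TCF partners, 2 were called higher and 1 lower in each iPS line. The co-repressor Tle3 was higher by 1.10 ± 0.11 in IP20D-3 and 0.87 ± 0.11 in IP14D-1, and Tcf7l1, the TCF that represses pluripotency genes, by 0.52 ± 0.09 and 0.43 ± 0.09, a call lost under median scaling in both and with no scaling in IP20D-3. Of 10 cytoplasmic transducers, 3 were called higher and 0 lower in IP20D-3, 3 and 0 in IP14D-101, and 2 and 2 in IP14D-1, with sizes up to 0.65 on the log2 scale. Axin1, the constitutive relative of Axin2, was -0.32 ± 0.09 in IP14D-1 over CL11 and 0.01 with no scaling.

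**Figure D3:**
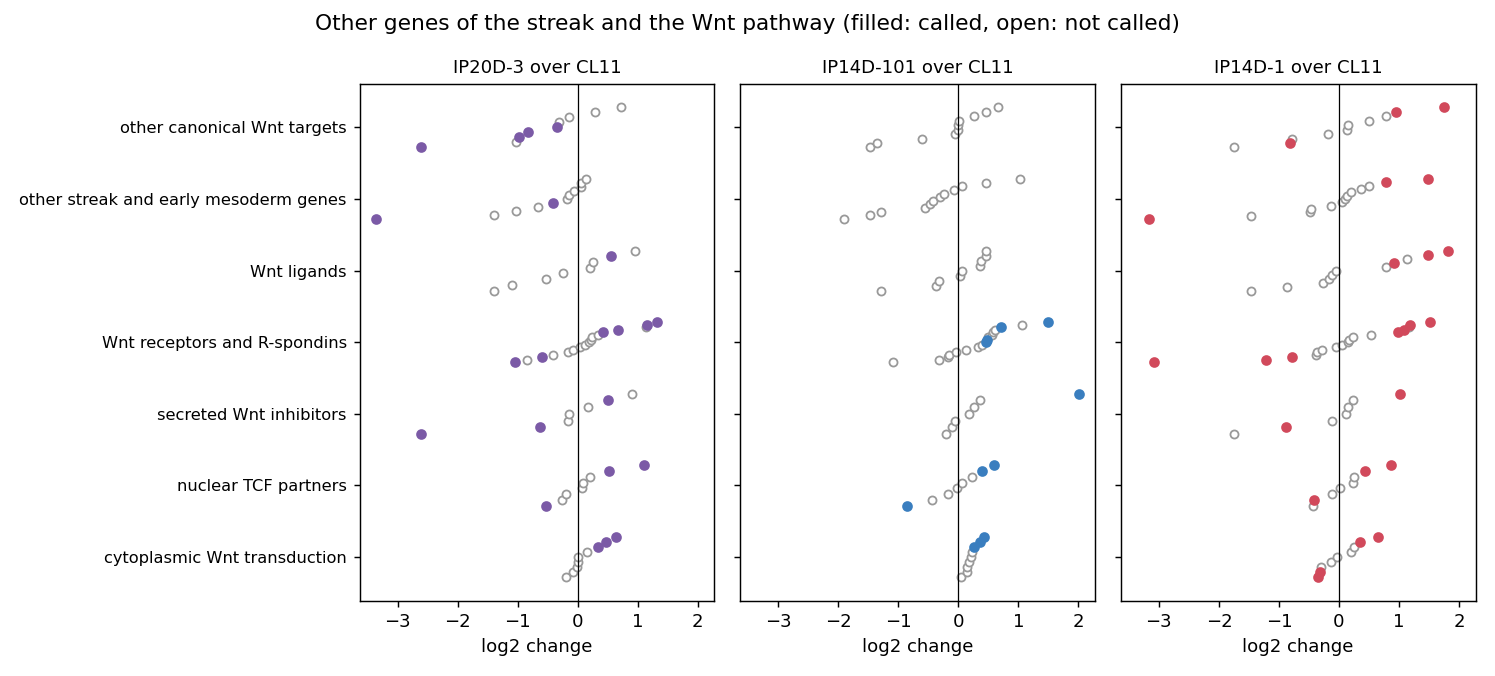
Fitted log2 change of the other streak and Wnt pathway genes in each iPS line over CL11, one row of points a list, for genes above background in at least 1 of the 2 groups. Filled points were called, open grey points were not, and the height of a point within its row only spreads the points. The farthest points to the left are Foxa2 at -3.37 and Dkk1 at -2.61 in IP20D-3 and Foxa2 at -3.17 and Rspo2 at -3.08 in IP14D-1; Dkk1 stands in both the target and the inhibitor rows.

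The genes whose pattern was most like each gene above background were found by Pearson correlation over the 15 arrays, among 8461 genes above background in at least 1 group whose group means spanned at least 1 log2 unit. The nearest to Sp5 were Mllt6 (r = 0.952), Nt5e (0.944) and Gtf3c2 (0.942). Axin2 was nearest to Dsg2 (0.992), Trim24 (0.987) and Ddx20 (0.987), and Eomes to Ppp2r1b (0.985), Mak16 (0.984) and Ftsj3 (0.982). Lef1 was nearest to Cep89 (0.940), Rbm34 (0.940) and Spry2 (0.935). Mixl1 and Cdx1 had weaker neighbours, 0610040J01Rik (0.862), Themis3 (0.860) and Ppfia3 (0.856) for Mixl1 and Qrsl1 (0.896), Dnajc27 (0.869) and Snrpf (0.869) for Cdx1. The arrays share scaling, and differences between the lines and MEF as well as between lines enter these values. For Sp5, Nt5e had a mean log2 signal of 13.62 in IP14D-1, 11.48 to 12.13 in the other lines and 11.03 in MEF.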

How the data were processed

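RNA from 15 samples, 3 in each of IP20D-3, IP14D-101, IP14D-1, CL11 and MEF, was hybridised to Affymetrix mouse arrays. The deposited intensity values are MAS5 signals, and the submitters' processing notes name the Affymetrix Expression Console without a version. No scans were read, and the number of arrays limits the precision. Each array held 45101 probe sets, 64 of them controls. Genes were named through the platform annotation, in which 34945 probe sets had 1 gene, 932 several and 9160 none, and no symbol changed against RefSeq. Arrays were scaled to a common trimmed mean and fitted with limma 3.58.1 in R 4.3.3 (group means, moderated variances with a trend, median prior degrees of freedom 7.82). Figures were drawn with Python 3.11.15 and matplotlib 3.10.9.

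Named genes are all members, up to 4 called genes of each list with the largest change per comparison, and the 3 nearest genes by correlation. Fzd7 in IP14D-1 over CL11 and Col1a2 were added after their values were seen. The members, lists and tests were chosen with earlier results of these data known. Same-numbered samples did not deviate together (30 pairs, correlations from -0.0296 to 0.0334, 0 above 0.1), so numbers were not taken to pair samples. On simulated data the fit was tested before use. Alternatives covered scaling, pseudocount, filter, probe set choice, background, variance trend, replicate block, the arrays fitted and each array left out.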

Additional observations from a re-analysis of the deposited data

How the results depend on the processing

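Of 810 alternative values for 45 single changes, 739 kept their direction and their side of the adjusted p threshold. Another 30 rose above that threshold, 18 fell below it and 23, none of them called, changed sign. The cause was not tested. Background did not enter these labels. Calls lost only because a mean fell below background, as for Sp5 in IP20D-3 and Mixl1 in IP14D-1 over MEF, therefore stand among the 739. Counts of the 9 genes called, by setting, were as follows. For IP14D-1 over CL11 (2), median scaling gave 1, no scaling 6, a pseudocount of 1000 gave 4, and 1 probe set per gene gave 4, where fewer features were tested. For IP14D-101 over IP14D-1 (1), no scaling gave 4. For IP20D-3 over IP14D-1 (3), median scaling gave 1, no scaling 6, a pseudocount of 1000 gave 4, the replicate block 1 and no variance trend 1. For IP20D-3 over IP14D-101 (1), the replicate block, no variance trend and a fit of only the 2 groups compared gave 0 each, and for IP20D-3 over CL11 (1) no variance trend gave 0. The replicate block changed no other count of members called. Leaving out 1 array gave 1 to 4 genes for IP14D-1 over CL11 (4 without CL11 replicate 1, 1 without CL11 replicate 2), 1 to 2 for IP14D-101 over IP14D-1 (2 without IP14D-1 replicate 3), 1 to 3 for IP20D-3 over IP14D-1 (1 without IP20D-3 replicate 1 or 3 or IP14D-1 replicate 1 or 3), 0 to 1 for IP20D-3 over IP14D-101 (0 in 5 of 6) and 0 to 1 for IP20D-3 over CL11 (0 without CL11 replicate 1 or 2; without IP20D-3 replicate 1 the 1 gene was Sp5, higher, in place of Eomes, lower). Over MEF it gave 3 to 4 in IP20D-3 (3 without IP20D-3 replicate 2 or 3), 6 to 7 in IP14D-1 (7 without IP14D-1 replicate 3) and 3 throughout in IP14D-101 and CL11. With no scaling IP20D-3 had 3 and IP14D-1 8, and with background at the 99th percentile 3 and 5. With quantile or median scaling IP14D-101 had 4, Sp5 being the gene added.

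Signs changed for Eomes in IP14D-1 over CL11 (-0.0563 with quantile and -0.19 with median scaling), Axin2 in IP20D-3 over CL11 (-0.0542, -0.11 and -0.20 with quantile, median and no scaling, -0.41 with the mean of probe sets), Lef1 in IP14D-101 over CL11 (0.0128, median) and Eomes in IP14D-101 over IP14D-1 (0.0606, median). Leaving out 1 array gave -0.55 to 0.23 for Lef1 in IP20D-3 over CL11, -0.45 to 0.34 for Lef1 and -0.21 to 1.16 for Sp5 in IP20D-3 over IP14D-101, -0.10 to 0.19 for Axin2 in IP20D-3 over CL11, -0.30 to 0.10 for Lef1 in IP14D-101 over CL11, and -0.15 to 0.37 for Eomes in IP14D-1 over CL11.

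Over all genes, median scaling moved the median log2 change by -0.24 in IP14D-1 over CL11 and 0.36 in IP14D-101 over IP14D-1, and no scaling by 0.32 and -0.47. The share of calls that were higher was 47.1% in IP14D-1 over CL11, against 20.2% with median and 88.4% with no scaling, and 52.9% in IP20D-3 over IP14D-1, against 72.2% and 0.676%. In IP20D-3 over CL11 it was 48.2%, against 30.2% and 17.9%, in IP14D-101 over CL11 53.4%, against 72.5% and 19%, in IP14D-101 over IP14D-1 54.6%, against 85.4% and 5.57%, and in IP20D-3 over IP14D-101 46.1%, against 18.3% and 35.1%. Over MEF no scaling gave 31.6% in IP20D-3 (55.8%), 33.8% in IP14D-101 (55.3%; 67.3% with median) and 39.2% in CL11 (55.8%). Genes called numbered 1701 in IP14D-101 over CL11, against 1071 with no scaling, 835 with no variance trend and 1128 from the 2 groups alone, and 1311 in IP20D-3 over IP14D-1, against 6358 and 507. Leaving out 1 array gave 768 to 1031 genes in IP20D-3 over IP14D-1 (791 and 870 without IP20D-3 replicate 1 and 3, 768 and 775 without IP14D-1 replicate 1 and 2) and 1095 to 1630 in IP14D-101 over CL11 (1095 without CL11 replicate 2). Signal near background limits Mixl1, Evx1, Wnt3, Fgf8 and Cdx1.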
